A study of Mus musculus with 16 samples.

Results

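The genes described here encode myostatin and its close relatives, the receptors these ligands share, and the follistatin proteins that bind them. They were taken by name, and earlier results of these data were known when they were chosen. The symbols were Mstn, Gdf11, Inhba, Inhbb, Acvr2a, Acvr2b, Acvr1b, Fst, Fstl1 and Fstl3. Rows of the deposited count table were matched to them through the GENCODE M21 annotation. All 10 were found among the 55536 genes of the table. The libraries came from 8 female mice, each giving RNA of visceral fat and of the red part of the gastrocnemius, a calf muscle. The label Cre-Control was on 4 of the mice and Conditional MusMyD88-/- on the other 4, which lack MyD88, a signalling adaptor of Toll-like receptors, in muscle. Tissues were tied to a mouse by the number in the subject label, and the 16 libraries fell into 4 groups of 4. All mice of both genotypes had run on wheels for 5 weeks and had then been kept for 8 days with restricted movement in a small mouse cage. The promoter that drives Cre, the strain, the age and the alleles that the control mice carry besides Cre are not stated in the sources at hand.

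Myostatin is secreted mainly by skeletal muscle and is known as a brake on muscle mass, since animals without it grow oversized muscles. It and growth differentiation factor 11, activin A and activin B bind the type II receptors ActRIIA and ActRIIB, which recruit a type I receptor such as ALK4 and lead to phosphorylation of Smad2 and Smad3. Follistatin and follistatin-like 3 wrap around these ligands outside the cell and keep them from their receptors. In adipose tissue, activin B is made by adipocytes, and follistatin-like 1 is a glycoprotein abundant in mesenchymal cells that shares a follistatin domain but is not known as a strong trap of myostatin.

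Libraries held 15203806 to 21747345 counts in muscle and 13242243 to 19114782 in fat. The summed level of 8 myofibre markers was 105900 to 138600 CPM (counts scaled to library size) in the muscle libraries and 487 to 5525 CPM in fat. The summed level of 7 adipocyte markers was 168 to 308 CPM in muscle and 20900 to 25120 CPM in 7 of the fat libraries. The exception was the fat library of control mouse 138, at 4285 CPM, which also held 16420 CPM of 5 smooth muscle markers against 412 to 990 CPM in the others, and 1621 CPM of 5 urothelial markers against 11.3 to 31.1 CPM. Values without this library are given beside the main results on fat. Myd88 itself was at 2.66 ± 0.64 CPM in control and 1.93 ± 0.20 CPM in knockout muscle (SD, n = 4 each), and these groups overlapped. Its log2 fold change was -0.47 (SE 0.20, 95% interval -0.89 to -0.05, edgeR unadjusted p = 0.0322, adjusted p = 0.949). A two-sided exact permutation test gave p = 0.0571. A count over the whole gene, in muscle that also holds cells other than myofibres, does not show which exons were lost or in which cells.

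Within muscle, levels were compared between genes per length, as RPKM (CPM per kilobase of exon). Mstn led at 21.1 ± 2.97 RPKM (SD, n = 8), above 96.1% of protein-coding genes. Acvr1b, which encodes ALK4, followed at 11.8 ± 1.53 RPKM, and the lowest Mstn library lay above the highest Acvr1b library. Acvr2a, for ActRIIA, was at 8.56 ± 0.75 RPKM and Fstl1 at 7.70 ± 1.66 RPKM, and their ranges overlapped, with Acvr2a ahead in 6 of 8 libraries. The other type II receptor gene, Acvr2b, for ActRIIB, was at 3.41 ± 0.42 RPKM, below Fstl1 in all 8 libraries. Gdf11, which encodes the ligand most like myostatin in sequence, stood at 2.32 ± 0.66 RPKM and overlapped Acvr2b in range. Muscle held little mRNA for the antagonists Fst (0.80 ± 0.20 RPKM) and Fstl3 (0.30 ± 0.12 RPKM). The activin subunit genes were as low, Inhbb at 0.39 ± 0.12 RPKM and Inhba at 0.28 ± 0.06 RPKM. Those lowest 3 genes, Inhbb, Fstl3 and Inhba, overlapped one another in range, so their order in muscle was not resolved.

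Fat had another order. Fstl1 led at 59.0 ± 15.7 RPKM (SD, n = 8), above 97.8% of protein-coding genes and above every other gene of the group in all 8 libraries. Inhbb, the subunit that forms activin B, came next at 16.8 ± 4.01 RPKM, ahead of Acvr2a (9.61 ± 0.88 RPKM) in 8 of 8 libraries although their ranges overlapped. Acvr1b was at 6.31 ± 1.20 RPKM. Next came Fstl3 at 3.59 ± 0.94 RPKM, Fst at 1.99 ± 0.74 RPKM and Acvr2b at 1.63 ± 0.34 RPKM, and each overlapped the next in range. The last were Gdf11 (0.90 ± 0.19 RPKM), Mstn (0.41 ± 0.31 RPKM) and Inhba (0.26 ± 0.08 RPKM). By mean, Acvr2a thus held place 3 of the 10 in both tissues, while Mstn led in muscle and was among the lowest genes in fat. Without the fat library of mouse 138 the order of the 10 means in fat was the same, with Inhbb at 17.8 ± 3.02 RPKM and Acvr1b at 5.91 ± 0.46 RPKM (SD, n = 7).

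**Figure D1:**
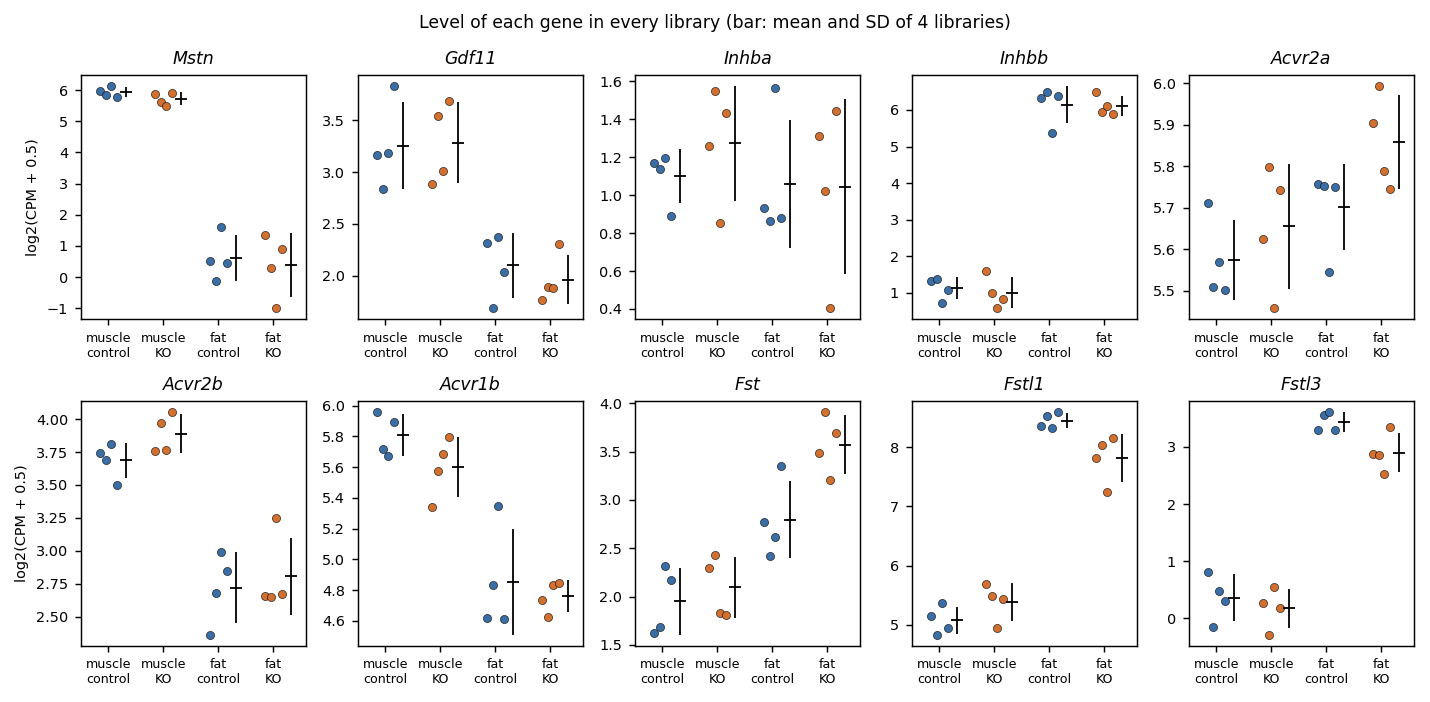
Level of each of the 10 genes in every library, as log2(CPM + 0.5) with CPM scaled within each tissue, in muscle and fat of control (blue) and knockout (KO, orange) mice; the bar beside each group is its mean and SD (n = 4). Each panel has its own vertical axis, and only Fstl1 in fat shows control and knockout groups that do not overlap.

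Muscle and fat were then compared directly over all 16 libraries, with both genotypes weighted equally. By edgeR's quasi-likelihood test, with genes called at an adjusted p under 0.05 over all 17084 genes tested, 6 of the 10 genes were higher in muscle and 3 were lower. Among all genes tested, 35.7% were called higher in muscle and 44.0% lower, so being called was common in this comparison, and the size of each difference says more than the call. The median log2 difference over the 10 genes was 1.18, against -0.16 over all genes. In bulk tissue, fewer cells of a type and less RNA per cell cannot be told apart. CPM values of this comparison were scaled over all 16 libraries together. Leaving out mouse 138 changed no call, and it moved the log2 differences by at most 0.31, for Mstn to 7.17.

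The ligand genes went in both directions. Mstn ran from 66.8 to 107 CPM in the muscle libraries, with a median of 87.1, and from 0 to 1.68 CPM in fat, with a median of 0.60. The muscle libraries thus lay far above all fat libraries, by a log2 difference of 6.86 (SE 0.37), or 116-fold, with an edgeR adjusted p of 1.55e-10. Gdf11 ran from 9.90 to 20.8 CPM in muscle, with a median of 13, and from 1.80 to 3.05 CPM in fat, with a median of 2.25. Its difference was 2.57 on the log2 scale (SE 0.18, edgeR adjusted p = 2.94e-09), in the same direction as its relative and much smaller. Inhba, whose product forms activin A, lay between 1.97 and 3.66 CPM in muscle (median 2.7) and between 0.55 and 1.6 CPM in fat (median 0.97). It was higher in muscle by 1.33 (SE 0.21, edgeR adjusted p = 3.20e-05), at counts of 22 to 53 per muscle library and 14 to 40 per fat library. Inhbb did the opposite, with 1.52 to 3.94 CPM in muscle (median 2.35) and 26.8 to 59.3 CPM in fat (median 49.4). It was lower in muscle in 8 of 8 mice, by a log2 difference of -4.25 (SE 0.22, edgeR adjusted p = 7.51e-11), or 19.0-fold.

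All 3 receptor genes were called higher in muscle. Acvr2b ran from 16.4 to 24.4 CPM in muscle (median 20.01) and from 3.08 to 5.96 CPM in fat (median 3.88), a log2 difference of 2.26 (SE 0.12, edgeR adjusted p = 7.84e-11). For Acvr1b the muscle libraries lay between 62.2 and 94.3 CPM (median 77.2) and the fat libraries between 15.9 and 26.2 CPM (median 17.9), a difference of 2.10 (SE 0.11, edgeR adjusted p = 5.98e-11). Acvr2a had the smallest difference of the 9 called genes, 1.03 (SE 0.07, edgeR adjusted p = 6.81e-10), with 65.5 to 83.1 CPM in muscle (median 73.6) and 30.2 to 41.6 CPM in fat (median 35.4). On this scale none of the receptor genes had overlapping tissues.

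The follistatin genes leaned to fat. Fstl1 was at 41.8 to 78.8 CPM in muscle (median 57.7) and 99.6 to 255 CPM in fat (median 197), a log2 difference of -1.72 (SE 0.14, edgeR adjusted p = 1.20e-08). Fstl3 was at 0.48 to 1.93 CPM in muscle (median 1.11) and 3.47 to 7.65 CPM in fat (median 6.14), a difference of -2.36 (SE 0.23, edgeR adjusted p = 1.03e-07). Both were higher in fat in 8 of 8 mice. Fst, the gene of follistatin itself, was not called: it ran from 3.96 to 7.39 CPM in muscle (median 5.33) and from 3.22 to 9.55 CPM in fat (median 6.09), with a difference of -0.07 (95% interval -0.45 to 0.31). Of the exon bases of Fstl3, 47.3% are shared with Prss57 on the other strand, and the strand setting of the counting is not given. Prss57 reached at most 0.24 CPM in any library.

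These differences depend on how libraries of such unlike tissues are put on 1 scale. Titin (Ttn) alone took 21.4 to 23.9% of the counts in muscle and at most 1.17% in fat. Scaled by total counts instead of TMM factors, the log2 differences of all genes moved by a median of -1.20, and the shares called higher and lower in muscle became 11.1% and 79.9%. On that scale Acvr2a turned over to -0.17 (edgeR adjusted p = 0.0273), Inhba was no longer called at 0.11 (edgeR adjusted p = 0.679), and Fst was called lower in muscle at -1.27 (edgeR adjusted p = 1.09e-05). The other 7 kept their direction and their call, Mstn at 5.64, Gdf11 at 1.35, Acvr2b at 1.05, Acvr1b at 0.87, Fstl1 at -2.93, Fstl3 at -3.57 and Inhbb at -5.42. A change of scaling moves all genes by nearly the same amount, so places relative to the median of all genes are kept by construction. Acvr2a lay 1.19 above that median on both scales and Fst 0.09 above it, which is no check on either scaling.

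**Figure D2:**
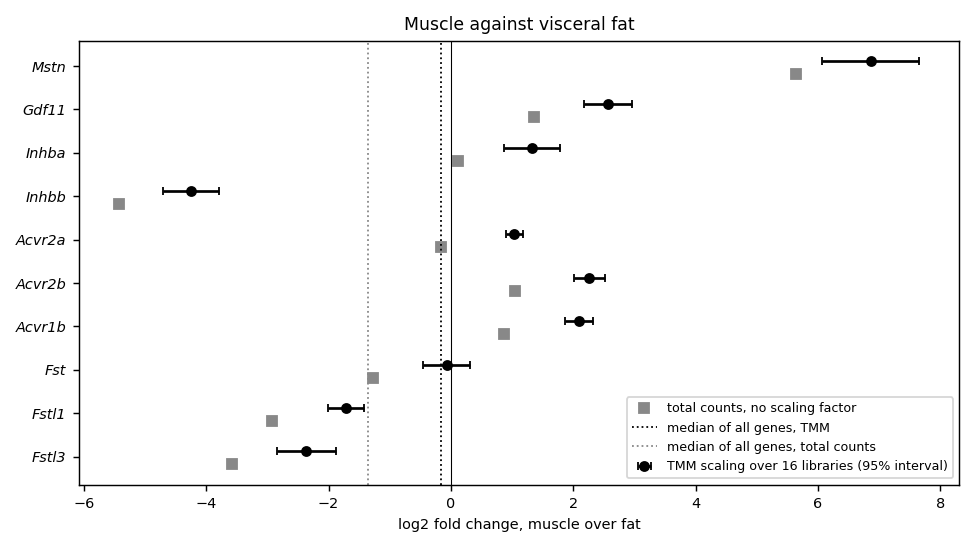
Log2 fold change of muscle over fat for each gene, with black points and 95% intervals from the TMM-scaled fit of 16 libraries and grey squares from total counts; dotted lines mark the median of all genes under each scaling. Mstn lies farthest to the right at 6.86 and Inhbb farthest to the left at -4.25, and total counts move every gene to the left, Acvr2a past 0.

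Ratios of 2 genes within a library do not depend on that scale. Per length, Mstn exceeded Gdf11 by 5.97 to 12.7 times in the muscle libraries (median 9.98), while in fat the ratio was 0 to 1.06 (median 0.35). Inhbb and Inhba were near each other in muscle, at ratios of 0.89 to 2.02 (median 1.45), and in fat Inhbb exceeded Inhba by 25.2 to 126 times (median 76.5). The lowest of these fat ratios is that of mouse 138, and without it they were 39.6 to 126 (median 85.4). Between the ligand genes, then, each tissue had 1 dominant transcript, Mstn in muscle and Inhbb in fat. The type II receptors shared an order in both tissues: Acvr2a exceeded Acvr2b by 2.27 to 2.87 times in muscle (median 2.51) and by 4.2 to 7.97 times in fat (median 6.26), and the tissues did not overlap. Fstl3 was at 0.12 to 0.91 times Fst in muscle (median 0.36) and at 0.87 to 4.34 times Fst in fat (median 1.63), with a slight overlap. No test was made of these ratios.

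The bases just before the start sites of the genes at either end of the comparison are shown because their transcripts differ most between the tissues. They are the 250 bases upstream in RefSeq on GRCm38.p6, for Mstn at chr1:53061390-53061639 on the plus strand and for Inhbb at chr1:119422249-119422498 on the minus strand, with that of Gdf11, at chr10:128891719-128891968 on the minus strand, for the relative of Mstn that is less biased to muscle. Capitals mark the E-box CANNTG, which reads the same on both strands and is the letter pattern that myogenic factors such as MyoD bind.
Mstn: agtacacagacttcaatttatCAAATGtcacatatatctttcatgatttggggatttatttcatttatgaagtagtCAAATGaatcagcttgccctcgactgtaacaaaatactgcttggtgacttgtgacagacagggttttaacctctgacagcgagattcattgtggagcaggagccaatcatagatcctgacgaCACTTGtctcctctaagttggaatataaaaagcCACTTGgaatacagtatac
Gdf11: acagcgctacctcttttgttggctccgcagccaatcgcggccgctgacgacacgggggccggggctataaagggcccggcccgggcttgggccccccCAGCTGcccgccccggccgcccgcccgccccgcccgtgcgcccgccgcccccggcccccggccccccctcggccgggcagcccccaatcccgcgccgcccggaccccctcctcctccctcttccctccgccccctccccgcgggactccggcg
Inhbb: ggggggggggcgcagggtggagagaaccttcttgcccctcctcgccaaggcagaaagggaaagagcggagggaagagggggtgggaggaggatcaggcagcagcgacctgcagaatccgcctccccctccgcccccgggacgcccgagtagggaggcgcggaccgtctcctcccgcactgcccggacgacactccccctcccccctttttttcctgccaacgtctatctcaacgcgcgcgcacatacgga
The Mstn stretch holds 4 such matches, that of Gdf11 holds 1, of the form CAGCTG, and that of Inhbb holds 0. The matches did not follow the tissue bias in the group as a whole. Fstl3, higher in fat, holds 3, Acvr1b holds 1, and Acvr2a, Acvr2b, Inhba and Fstl1 hold 0. Patterns for FoxO, MEF2 and Smad factors were also sought, and the stretches shown hold 0 of each. Of the stretches not shown, that of Inhba holds 1 MEF2 match, and no other holds any of these patterns. Of 32851 mouse promoter entries of the same length, 66.2% hold at least 1 E-box, 3.83% hold 4 or more, and 13% hold CAGCTG. The pattern for MEF2 is in 2.92% of them, that for FoxO in 3.17% and that for Smad factors in 0.167%. Such matches describe the letters and are not measured binding sites. Promoter entries were found for 9 of the 10 genes, Fst being the other.

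The low Mstn counts in fat were set beside genes of the myofibre. On the scale fitted within each tissue, used from here on for all comparisons of genotype, Mstn in fat was at 0.94, 0.42, 2.58 and 0.87 CPM in control mice 131, 137, 138 and 11, and at 2.05, 0.73, 0 and 1.36 CPM in knockout mice 139, 958, 960 and 29. The 0 of mouse 960 allows up to 3 counts, or 0.18 CPM, for counting error only. As a share of its mean in muscle, with each tissue on its own scale, Mstn in the fat libraries was 0 to 4.53%. In the same libraries, muscle creatine kinase (Ckm) was at 0.29 to 2.7% of its mean in muscle, and skeletal actin (Acta1) at 0.59 to 3.64%. Mice 138, 139 and 29 had the highest fat levels of both Mstn and Ckm, and mice 137 and 960 the lowest. The part of myofibre RNA in the Mstn counts of fat was not tested. In the other direction, Inhbb in muscle was at 1.41 to 3.56% of its mean in fat. The adipocyte hormone gene Adipoq was at 0.08 to 0.86% there, and mouse 139 was highest in both. The scales of the tissues are unlike, so these shares only set genes of the same libraries beside each other. On the scale of all 16 libraries, Mstn in fat reached 1.68 CPM, against a median of 87.1 CPM in muscle. Inhbb in muscle was there at 1.52 to 3.94 CPM, against a median of 49.4 CPM in fat.

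**Figure D3:**
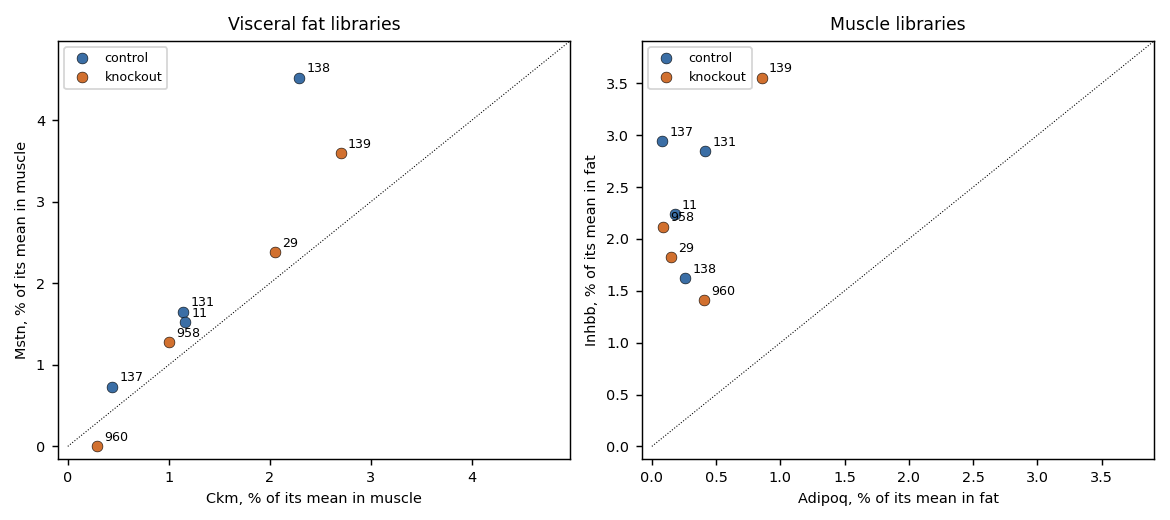
Left: in each fat library, Mstn against Ckm, both as a percentage of the gene's mean in muscle. Right: in each muscle library, Inhbb against Adipoq, both as a percentage of the mean in fat. Each tissue was scaled on its own, so the percentages differ from those on a scale common to both tissues. Points are libraries labelled by mouse, blue for control and orange for knockout, and the dotted line marks equal percentages; fat libraries high in Ckm (138, 139 and 29) are also those high in Mstn, and all muscle libraries lie above the line for Inhbb.

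The knockout was compared with the control first in muscle, the tissue in which MyD88 was targeted. None of the 10 genes was called by edgeR at an adjusted p under 0.05, where 0.0141% of the 14183 genes tested were. None had an unadjusted p under 0.05 either, against 5.04% of all genes, and none had groups that did not overlap, against 3.38%. DESeq2 and limma voom also called 0, though DESeq2 gave no adjusted p for Inhba, Inhbb, Fst and Fstl3. The median log2 fold change of the 10 was 0.06, and that of all genes 0.00. Mstn was at 63.0, 56.4, 70.2 and 54.7 CPM in control mice 131, 137, 138 and 11 and at 58.2, 49.1, 44.3 and 60.1 CPM in knockout mice 139, 958, 960 and 29. The 2 lowest values were of knockouts and the 2 highest of controls, with the rest mixed, and the log2 fold change was -0.21 (95% interval -0.44 to 0.02, edgeR adjusted p = 0.949). A log2 change of 1 in either direction lies outside that interval.

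The muscle receptor genes had narrow intervals as well. Acvr2b was at 12.9, 12.4, 13.6 and 10.8 CPM in the controls and at 13.1, 15.2, 13.1 and 16.1 CPM in the knockouts, in the same order of mice. Its groups overlapped through 1 control, mouse 138, and its log2 fold change was 0.21 (95% interval -0.01 to 0.44, edgeR adjusted p = 0.949). Acvr1b was at 61.7, 52.1, 50.6 and 59.0 CPM in controls against 40.1, 47.1, 51.0 and 55.1 CPM in knockouts, a fold change of -0.21 (95% interval -0.42 to 0.01). Acvr2a, at 47.2 ± 3.27 CPM in controls against 50.1 ± 5.14 CPM in knockouts (SD, n = 4 each), had the narrowest interval, -0.10 to 0.27. Acvr2b lies on chromosome 9 at a distance of 60.7 kb from Myd88. Of the other protein-coding genes tested within 200 kb of Myd88, none was called in either tissue, and Exog, at a distance of 103.5 kb, was the only one whose muscle groups did not overlap, with 1.1 ± 0.33 CPM in controls and 1.41 ± 0.04 CPM in the knockouts.

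Fstl1, the most abundant follistatin-like gene in muscle, was at 35.0, 28.1, 40.7 and 30.4 CPM in controls and at 50.8, 44.5, 30.2 and 42.9 CPM in knockouts. All knockouts but mouse 960 lay above all controls, and the log2 fold change was 0.33 (95% interval -0.03 to 0.68, edgeR adjusted p = 0.949). The summed level of 8 fibroblast markers was 538 to 724 CPM in control muscle and 635 to 809 CPM in knockout muscle, with 8 of 8 markers higher in the knockouts by a median of 0.25, and mouse 960 was the lowest knockout there too. Macrophage markers were higher too, 7 of 7 by a median of 0.43. Mouse 960 was again the lowest knockout in their sum, at 74.7 CPM. Most tendon, satellite cell, endothelial and adipocyte markers were higher as well. Myofibre and smooth muscle markers went the other way, with medians of -0.04 and -0.25. The part of any of these cell types in the Fstl1 values was not tested. Inhba, Inhbb, Gdf11, Fst and Fstl3 had intervals reaching from -1.13 at the lowest to 0.72 at the highest, which at 7 to 276 counts per library leave room for differences of moderate size.

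**Figure D4:**
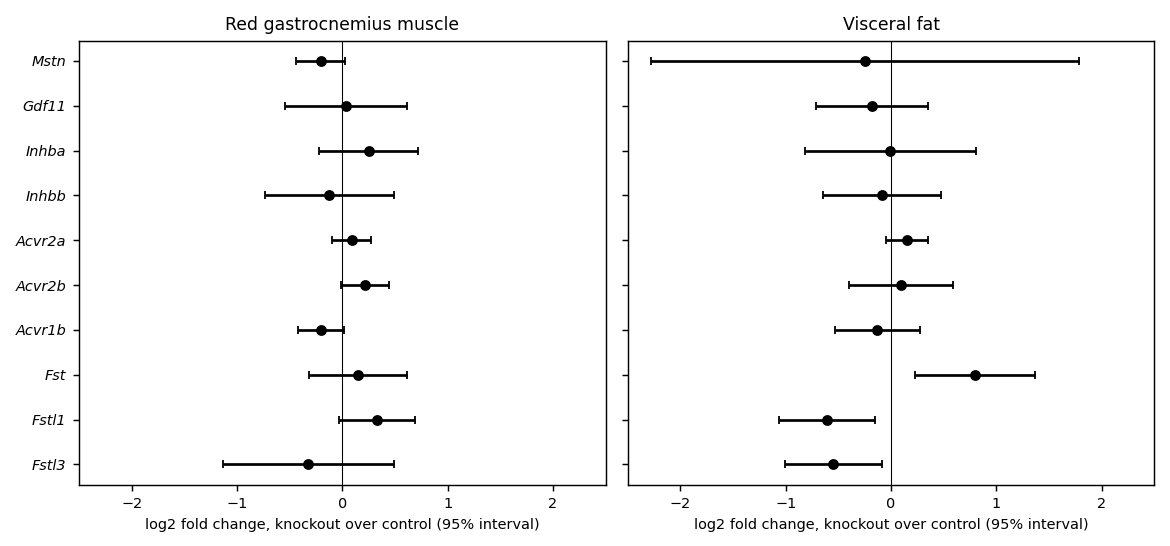
Log2 fold change of knockout over control for each gene in muscle (left) and visceral fat (right), with 95% intervals (n = 4 mice per genotype). In muscle every interval includes 0; in fat those of Fst, Fstl1 and Fstl3 do not, and Mstn, with 0 to 42 counts per fat library, has the widest.

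In visceral fat no gene of the 10 was called, and the 3 follistatin genes had the smallest p-values. By edgeR 0 of 10 passed an adjusted p under 0.05, where 0.00613% of 16323 genes did, and DESeq2 and limma voom on the same 8 libraries also called 0. At an unadjusted p under 0.05 there were 3 of 10, Fst, Fstl1 and Fstl3, against 7.99% of all genes. Groups that did not overlap were found for 1 of 10, Fstl1, against 6.38% of all genes. The median log2 fold change was -0.11 over the 10 and -0.01 over all genes. Without mouse 138 the same 3 genes had an unadjusted p under 0.05, but so did 16.6% of the 16579 genes then tested. Again Fstl1 alone had groups that did not overlap, against 16.1% of all genes.

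Fstl1 was at 327, 366, 321 and 385 CPM in control mice 131, 137, 138 and 11 and at 226, 261, 150 and 283 CPM in knockout mice 139, 958, 960 and 29. Every knockout lay below every control. The means were 350 ± 30.9 and 230 ± 58.1 CPM (SD, n = 4 each), a log2 fold change of -0.61 (SE 0.20, edgeR p = 0.0145, adjusted p = 0.588), and a two-sided exact permutation test gave p = 0.0286, the smallest that 4 against 4 can give. Without mouse 138 the fold change was -0.64 with an edgeR adjusted p of 0.199, and DESeq2 without that mouse gave an adjusted p of 0.0367, the only call of a gene of the group in any genotype comparison or alternative.

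Fst went the other way. It was at 6.35, 4.87, 5.65 and 9.69 CPM in controls and at 10.7, 14.5, 8.70 and 12.5 CPM in knockouts, so that 3 of 4 knockouts lay above all controls and control mouse 11 lay above knockout mouse 960. The log2 fold change was 0.80 (SE 0.25, edgeR p = 0.0115, adjusted p = 0.588), with an exact permutation p of 0.0571, and 0.73 without mouse 138 (edgeR adjusted p = 0.229). Fstl3 was at 9.29, 11.3, 11.7 and 9.29 CPM in controls against 6.86, 6.72, 5.23 and 9.74 CPM in knockouts. It had 3 of 4 knockouts below all controls, with mouse 29 among the controls, and a log2 fold change of -0.55 (SE 0.20, edgeR p = 0.0258, adjusted p = 0.611, exact permutation p = 0.0857). Without mouse 138 it was -0.48 (edgeR adjusted p = 0.273). Follistatin and follistatin-like 3 are both ligand traps, and their genes differed here in opposite directions, neither past the threshold.

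Fibroblast markers in fat summed to 3904, 3536, 6685 and 4855 CPM in control mice 131, 137, 138 and 11 and 3458, 4100, 2295 and 3794 CPM in knockout mice 139, 958, 960 and 29. Of the 8 markers, 2 were higher in knockouts, with a median log2 fold change of -0.40, and of -0.20 without mouse 138. Knockout mouse 960 was lowest in this sum and lowest of all in both Fstl1 and Fstl3, whereas mouse 138, highest in the sum by far, was the lowest control for Fstl1. Macrophage markers also leaned down, with 0 of 7 higher, a median of -0.21, and of -0.36 without mouse 138. Mouse 960 was lowest in their sum too, at 477 CPM, close to knockout mouse 139 at 483 CPM. Myofibre and endothelial markers went the other way, with 8 of 8 and 5 of 5 higher, and with 8 of 8 and 3 of 5 without mouse 138. Adipocyte and smooth muscle markers turned with that library. Adipocyte markers had 6 of 7 higher with it and 1 of 7 without it. Smooth muscle markers had 0 of 5 higher with it, at a median of -2.48, and 4 of 5 without it, at a median of 0.29. The part of any of these cell types in the follistatin values was not tested.

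**Figure D5:**
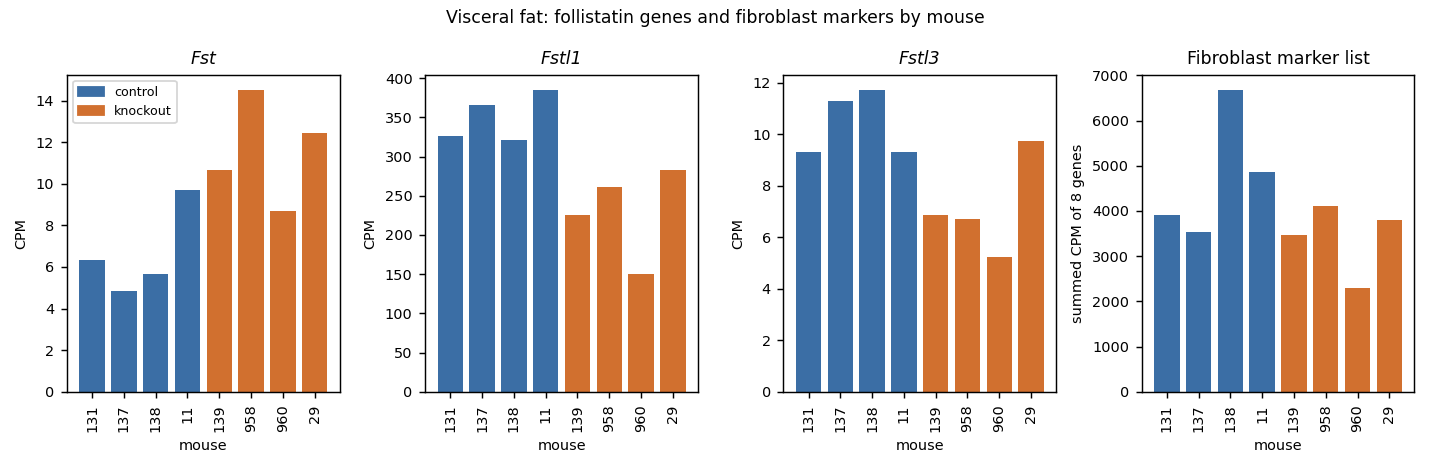
CPM of Fst, Fstl1 and Fstl3 in the visceral fat of each mouse, and the summed CPM of 8 fibroblast markers in the same libraries, for control (blue) and knockout (orange) mice. For Fstl1 the knockouts sit between 150 and 283 CPM, below all controls at 321 to 385 CPM, while the fibroblast sums of the genotypes overlap.

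The other genes of the group showed smaller differences in fat. Inhbb, the main ligand gene there, was at 80.3, 88.8, 41.1 and 83.5 CPM in controls and at 89.1, 61.0, 69.0 and 58.4 CPM in knockouts, a log2 fold change of -0.08 (95% interval -0.64 to 0.47, edgeR adjusted p = 0.932). The low control is mouse 138, whose adipocyte markers were also low. Without it the controls stood at 84.2 ± 4.32 CPM (SD, n = 3) and the fold change was -0.28, with an edgeR adjusted p of 0.356, and 3 of 4 knockouts lay below all 3 remaining controls. Acvr2a was at 51.6 ± 3.61 CPM in controls against 57.6 ± 4.59 CPM in knockouts (SD, n = 4 each), a fold change of 0.15 (95% interval -0.04 to 0.35), and 0.11 without mouse 138. Acvr2b, Acvr1b and Gdf11 had fold changes of 0.09, -0.13 and -0.18, with intervals that included 0. Mstn and Inhba in fat rested on 0 to 42 and 14 to 40 counts per library, and their intervals, -2.28 to 1.78 and -0.82 to 0.81, set no close limit. The value for Mstn also moved with the tool, from -0.25 in edgeR to -1.09 in limma voom, -1.12 in limma voom with the mouse as replicate block and, without mouse 138, 0.44 in edgeR and -0.66 in limma voom.

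An interaction term over the 16 libraries asked whether the genotype differences themselves differed between muscle and fat. EdgeR called 0 of the 10 genes and 0.0% of 17084, and DESeq2 also called none of the 10. At an unadjusted p under 0.05 there was 1 gene of the 10, Fstl1, against 7.19% of all genes. Its difference between the tissues' log2 fold changes, muscle minus fat, was 0.94 (SE 0.27, edgeR adjusted p = 0.653). The knockout mean was above the control mean in muscle, at 42.1 ± 8.66 against 33.6 ± 5.60 CPM (SD, n = 4 each), and below it in fat. For Fst the interaction was -0.64 (95% interval -1.40 to 0.13).

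The wider pathway was read from lists of ligands, receptors, antagonists, precursor proteases, Smad proteins, Smad targets and muscle growth genes. Some of these lists also hold genes of the 10, which are then part of the counts. No gene of these 7 lists was called for genotype in either tissue or in the interaction. In muscle, 0 of 14 ligand genes and 1 of 14 receptor genes tested had an unadjusted p under 0.05, against 5.04% of all genes. That receptor gene was Acvrl1, for ALK1, at 8.80 ± 0.56 CPM in controls against 11.0 ± 0.68 CPM in knockouts (SD, n = 4 each, edgeR adjusted p = 0.907). The list of muscle growth and atrophy genes had the most, 7 of 14. Ppargc1a, the coactivator of oxidative metabolism, was at 72.1 ± 10.5 CPM in controls against 48.3 ± 2.97 CPM in knockouts, a log2 fold change of -0.58 (SE 0.10, edgeR adjusted p = 0.128). The growth factor gene Igf1 was at 12.2 ± 1.90 and 18.8 ± 1.28 CPM, a fold change of 0.63 (SE 0.11, edgeR adjusted p = 0.159). Among Smad targets in muscle, Id1, an inhibitor of differentiation, was at 5.78 ± 0.64 CPM in controls against 3.70 ± 0.83 CPM in knockouts (edgeR adjusted p = 0.783), the 1 gene of 13 with an unadjusted p under 0.05. The list of targets was not split by Smad protein, so its genes are not a readout of Smad2 and Smad3 alone.

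In fat, 1 of 13 Smad target genes had a positive log2 fold change and their median was -0.47, against -0.01 over all genes, with 3 at an unadjusted p under 0.05, a level reached by 7.99% of all genes. Without mouse 138 the list's median was -0.04, against 0.01 over all genes, with 4 of 13 positive and 1 at an unadjusted p under 0.05, where 16.6% of all genes were. Cdkn1a, the cell cycle inhibitor p21, was at 15.4 ± 6.33 CPM in controls against 7.07 ± 1.17 CPM in knockouts (SD, n = 4 each), and the collagen gene Col1a1 at 414 ± 297 and 200 ± 58.0 CPM, with edgeR adjusted p of 0.588 and 0.619. Mouse 138 alone held 858 CPM of Col1a1, against 258 to 274 CPM in the other controls, and without it the log2 fold changes were -1.31 for Cdkn1a and -0.41 for Col1a1 (edgeR adjusted p = 0.131 and 0.362). Among the proteases that cut ligand precursors, Pcsk5 was at 45.2 ± 9.33 CPM in controls against 71.9 ± 5.38 CPM in knockouts, a log2 fold change of 0.67 (SE 0.14, edgeR adjusted p = 0.588) and 0.62 without mouse 138. The receptor gene Acvr1, for ALK2, was at 18.5 ± 1.73 and 24.1 ± 2.25 CPM, with fold changes of 0.38 (edgeR adjusted p = 0.588) and, without mouse 138, 0.43. None of these passed the threshold.

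Between the tissues, with CPM again scaled over all 16 libraries, genes of these lists were called in both directions. The counts include genes of the 10 that are on a list, whose calls were given above. Of 14 receptor genes tested, 7 were higher and 7 lower in muscle. Acvr1c, which encodes ALK7, the type I receptor that activin B and some other ligands can use, was at 399.9 ± 137 CPM in fat and 3.76 ± 3.28 CPM in muscle (SD, n = 8 each), a log2 difference of -6.77 (SE 0.54, edgeR adjusted p = 1.58e-08). It is thus, like Inhbb, a transcript of the fat libraries. Of 16 antagonists and binding proteins, 3 were higher in muscle and 10 lower. Wfikkn2, for a secreted protein that binds myostatin, was among the 3, with 13.3 ± 1.20 CPM in muscle against 1.05 ± 0.66 CPM in fat, a difference of 3.65 (SE 0.31, edgeR adjusted p = 2.71e-08). All 6 tested precursor proteases were lower in muscle, Pcsk5 most clearly at -2.69 (SE 0.11, edgeR adjusted p = 3.01e-12). Of 15 Smad proteins and regulators, 4 were higher and 6 lower in muscle, among the former Smad3 at 1.68 and Zfyve9, the receptor anchor SARA, at 2.13 on the log2 scale. Of 13 Smad targets, 2 were higher and 8 lower. Scaled by total counts, the splits of higher and lower calls became 3 and 11 for receptors, 1 and 13 for antagonists, 0 and 6 for proteases, 2 and 13 for Smad proteins and 0 and 12 for Smad targets, and Acvr1c, Wfikkn2, Pcsk5, Smad3 and Zfyve9 kept their directions and calls.

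Finally, the genes whose log2(CPM + 0.5) followed the main ligand gene of each tissue most closely over its 8 libraries were listed, as a description without a test. For Mstn in muscle, among 8563 protein-coding genes with a mean of at least 5 CPM, these were Arih1 (Pearson r = 0.96), Mtcp1 (0.95), Clic5 (0.95) and Myf6 (0.94). Myf6, which encodes the myogenic factor MRF4, ranged from 27.8 to 46.3 CPM. For Inhbb in fat, among 11047 genes, they were Ube2r2 (r = 0.99), Brip1 (0.98), Fndc3b (0.98) and Ybey (0.98). Without mouse 138, over 7 libraries, only Ube2r2 (0.98) was still among the first 4, which were led by the catalase gene Cat (0.99). Each r is the highest of as many genes as were compared, and the points share depth and tissue composition.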

How the data were processed

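The authors deposited raw counts of reads per Ensembl gene, 1 column per library, unscaled. The tools named in the submitters' processing notes are DESeq2 1.22.2, featureCounts 1.6.3 and STAR 2.7.0f, for build GRCm38, without their roles; annotation release, strand setting and handling of multiply mapped reads are not given in these sources. Stranded libraries of rRNA-depleted total RNA were sequenced in pairs, per the labels' protocols. Identifiers were matched to GENCODE M21, which also gave exon lengths for RPKM.

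From these counts, edgeR 4.0.16 (R 4.3.3) tested all genes with TMM scaling, filterByExpr and robust quasi-likelihood fits, with Benjamini-Hochberg adjustment over all genes tested and a threshold of 0.05. All 10 genes passed the filter in each fit. Genotype was fitted within each tissue over 8 libraries, and the interaction and the tissue difference over all 16. CPM are counts scaled to a common library total and divided by the TMM factor. Exact permutation tests used log2(CPM + 0.5). limma 3.58.1 and DESeq2 1.42.0 were alternatives, with other scalings, filters, thresholds and mice left out. Reads carry no molecular identifiers, so a limit from a count of 0 covers counting error only.

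The members, gene lists and markers were chosen with earlier results of these data known. Besides the members, the rule for named genes took up to 4 genes per list with the smallest p among those called, otherwise the 2 with the smallest p, the 4 genes most like Mstn and Inhbb, and protein-coding genes within 200 kb of Myd88; not all are printed. Ckm, Acta1, Adipoq, Ttn, Prss57 and Orc4 were named after their values were seen. The mouse number in the subject labels pairs the tissues; deviations of paired libraries from their group means correlated at -0.02 to 0.20 over 17084 genes. The fits were tested on simulated counts.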

Additional observations from a re-analysis of the deposited data

Results flagged for a closer look

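Each of the 10 genes was checked in each of the 4 groups for a library far from the other 3, measured as the gap to its nearest neighbour over the range of the group against Dixon's 95% critical value for 4 samples. Of 40 groups, 3 held such a library; chance gives about 1 in 20. Inhba in control fat was at 2.46 CPM in mouse 138 and at 1.32 to 1.41 CPM in the others. Acvr2a in control fat was at 46.2 CPM in mouse 138 and at 53.3 to 53.6 CPM in the others. Both are in the fat library that also stands apart in its adipocyte, smooth muscle and urothelial markers. Acvr2b in knockout fat was at 8.995 CPM in mouse 960 and at 5.77 to 5.85 CPM in the others; this library had the lowest summed fibroblast markers in fat, at 2295 CPM.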

How the results depend on the processing

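Across scalings, filters, tools, thresholds, single mice left out, 1 fit of all libraries and the replicate block, the number of the 10 genes called stayed 0 for genotype in muscle, 0 for genotype in fat, 0 in the interaction and 9 between tissues, although under total counts Fst took the place of Inhba among the 9. With the mouse as replicate block the counts were again 0, 0, 0 and 9, and no gene changed its call in this paired analysis. An exception to the count in fat was DESeq2 without mouse 138 in fat, an alternative chosen after seeing the data, as were limma voom without mouse 138 and the muscle fit without mice 131 and 11; it called 1 gene, Fstl1. Over all genes, edgeR called 2 for genotype in muscle and 1 in fat, against 9 and 72 by DESeq2, 80 in muscle without a filter, and 0 against 7 in the interaction; in fat without mouse 138 the counts were 6 by edgeR and 330 by DESeq2.

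Directions of small differences were not stable. DESeq2 without mouse 138 turned the fat log2 fold changes of Mstn to 0.47, Inhba to 0.26 and Acvr1b to 0.0706. Limma voom without that mouse gave 0.15 for Inhba and 0.0774 for Acvr1b, and upper-quartile scaling 0.0106 for Inhba. Total counts turned the interactions of Inhbb, Acvr2a and Acvr1b to 0.0486, 0.0464 and 0.0858, while the median of all genes rose to 0.14, and the tissue difference of Acvr2a to -0.17. The cause was not tested.

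Leaving out each mouse in turn gave muscle log2 fold changes of -0.12 to 0.28 for Gdf11 and -0.42 to 0.0357 for Inhbb. In fat the ranges were -0.82 to 0.44 for Mstn, -0.19 to 0.26 for Inhba, -0.28 to 0.0121 for Inhbb, -0.10 to 0.21 for Acvr2b and -0.23 to 0.0712 for Acvr1b. In the interaction they were -0.53 to 0.57 for Mstn, -0.19 to 0.13 for Inhbb, -0.31 to 0.0703 for Acvr1b and -0.14 to 0.54 for Fstl3, and between tissues -0.18 to 0.0430 for Fst. All of these differences were uncalled. With 4 mice per group and 0 to 53 counts per library, depth limits what can be said of Inhba in both tissues and of Mstn in fat.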
